A study of Homo sapiens with 6 samples.

Results

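The 9 genes described here mark classes of spinal interneurons and the transmitters that neurons release. They are the identity factors EN1, GATA2, GATA3, LMX1B and SIM1, the GABA synthesis enzymes GAD1 and GAD2, the vesicular inhibitory transporter SLC32A1 and the vesicular glutamate transporter SLC17A6. They were taken by symbol from a counts table of 57820 genes, and all 9 were found. The libraries were made from wild-type motor neurons grown from H9, an established human embryonic stem cell line. Motor neuron progenitors had been cultured in neural medium to which retinoic acid and the Hedgehog pathway agonist SAG had been added, and both groups share that history. In the simulated microgravity group (SMG, 3 libraries) a 2D clinostat rotated the culture so that the direction of gravity kept changing relative to the cells, and the normal gravity group (NG, 3 libraries) was the control. The sources used here do not give the time on the clinostat, and the cells came from 1 line.

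In the embryonic spinal cord, neurons are sorted into classes by transcription factors that progenitors and young neurons switch on along the axis from back to belly. EN1 marks V1 inhibitory interneurons, GATA2 and GATA3 mark V2b inhibitory interneurons that arise beside the excitatory V2a class, SIM1 marks V3 excitatory interneurons, and LMX1B is used by dorsal excitatory interneurons and by serotonergic neurons of the hindbrain. GAD1 and GAD2 make GABA from glutamate, SLC32A1 loads GABA and glycine into synaptic vesicles, and SLC17A6 loads glutamate, so these genes report transmitter type rather than class.

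The labelled cell type was checked against its markers. All 8 motor neuron markers were expressed, with a summed level of 687 to 720 CPM in NG and 814 to 842 CPM in SMG. CPM is a gene's count scaled to the library's total, after TMM scaling between libraries. ISL1, a motor neuron identity factor, was at 103 ± 4.0 CPM in NG and 120 ± 3.7 CPM in SMG. Progenitor, glial and pan-neuronal markers were also present, so the cultures were mixed. Libraries held between 16329907 and 22685870 counts. Nothing in the labels ties the libraries to separate cultures, and p-values therefore reflect spread among 6 libraries that may be technical. All values are mean ± SD with n = 3 per group, log2 fold changes are SMG minus NG ± SE, and adjusted p-values are from edgeR's quasi-likelihood test over 17803 genes. In bulk RNA, fewer cells of a type and less RNA per cell cannot be told apart.

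EN1, GATA2 and LMX1B were higher in SMG, by 1.65-, 2.11- and 2.55-fold, and GAD1 was lower, at 0.644 of its NG level. GAD2, GATA3, SLC32A1 and SLC17A6 did not pass the test, and SIM1 was too weak to be tested. The 3 factors that rose were all under 2 CPM in both groups, while GAD1 was one of only 2 of the 9 genes with a mean of at least 2 CPM. Of all tested genes, 35.8% passed in either direction, 17.3% higher and 18.5% lower, so 4 of 8 is read against a background in which more than 1 gene in 3 passed. LMX1B and SLC32A1 passed the filter on low counts only through SMG, so a count over the tested genes supports nothing by itself. The groups did not overlap in 5 of the 8 tested genes (EN1, GATA2, LMX1B, GAD1 and SLC32A1), where 46.3% of all tested genes did not overlap. LMX1B and SLC32A1, tested only through SMG, are 2 of those 5, so this count supports nothing by itself either. The motor neuron markers, whose summed level is given above, were also higher in SMG (6 of 8 called, 4 after removal of each library's trend with transcript length and GC content), and their part in these differences was not tested.

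**Figure D1:**
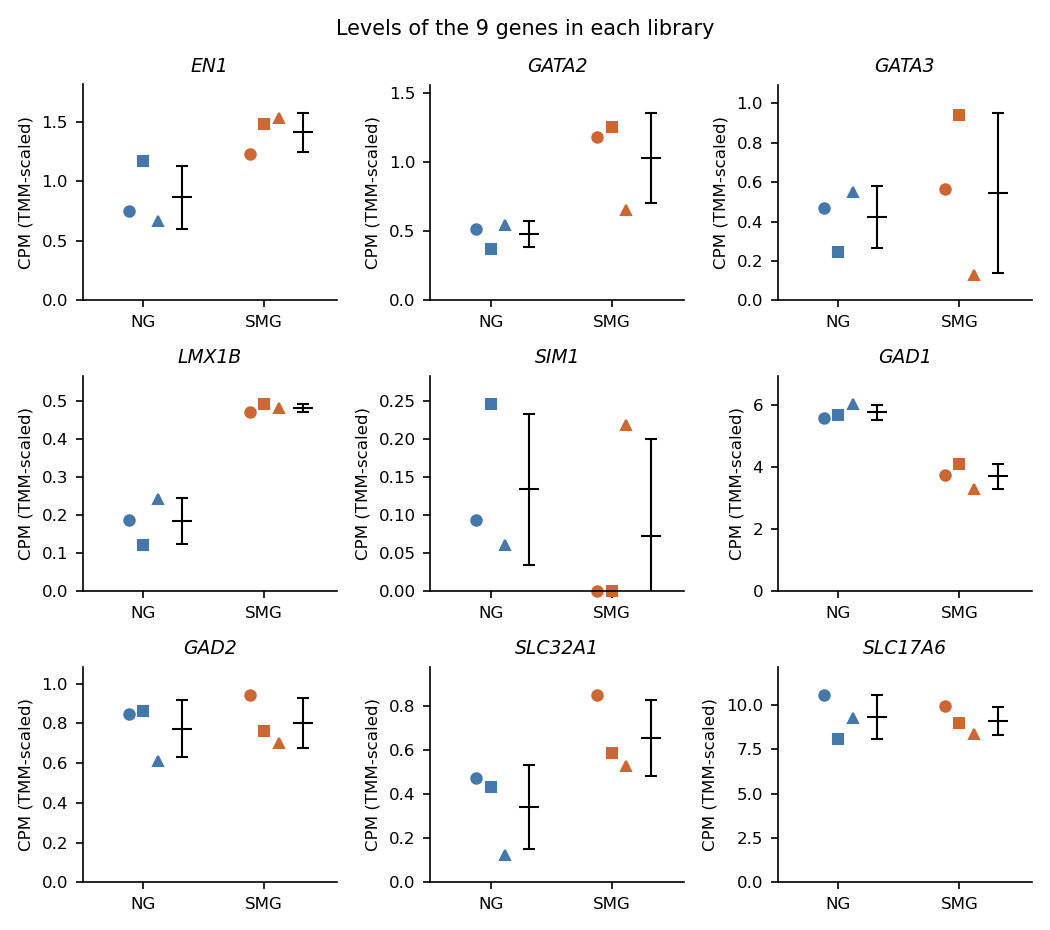
TMM-scaled CPM of each of the 9 genes in the 3 NG libraries (blue) and the 3 SMG libraries (orange). Circles, squares and triangles are replicates 1, 2 and 3, which are not paired across groups, and the black bar is the mean ± SD, clipped at 0. GAD1 lies between 5.56 and 6.03 CPM in NG and between 3.28 and 4.09 CPM in SMG, whereas both groups of SLC17A6 lie between 8.07 and 10.6 CPM.

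Sequences upstream of GATA2 and LMX1B are shown because these are the tested identity factors that rose and have an entry in the promoter table used. They come from RefSeq (GRCh38.p14), each 250 bases long and ending at the base before the listed start site. Windows that overlapped an untranslated region in GENCODE 29 are not printed, which left out those of GAD1, GAD2, SIM1, SLC17A6 and SLC32A1. GATA2 has 2 listed starts, on the minus strand of chromosome 3, at chr3:128493202-128493451 and chr3:128488531-128488780. LMX1B has 1, on the plus strand of chromosome 9, at chr9:126613678-126613927. Capitals mark any match, on either strand, to TATAAA (the TATA box word), to AGATAA or its variant AGATAG or to TGATAA or its variant TGATAG (words bound by GATA factors) or to ACGTG (the core word of hypoxia response elements).
GATA2, upstream start: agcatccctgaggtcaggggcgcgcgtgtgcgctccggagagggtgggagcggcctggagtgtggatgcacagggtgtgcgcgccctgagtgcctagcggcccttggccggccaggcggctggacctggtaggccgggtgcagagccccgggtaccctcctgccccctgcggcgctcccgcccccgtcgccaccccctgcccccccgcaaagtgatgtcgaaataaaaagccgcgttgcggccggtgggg
GATA2, downstream start: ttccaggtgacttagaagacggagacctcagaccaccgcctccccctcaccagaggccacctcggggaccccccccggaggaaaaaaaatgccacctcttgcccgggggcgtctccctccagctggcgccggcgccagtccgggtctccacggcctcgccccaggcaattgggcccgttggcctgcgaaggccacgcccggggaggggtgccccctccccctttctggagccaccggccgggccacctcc
LMX1B: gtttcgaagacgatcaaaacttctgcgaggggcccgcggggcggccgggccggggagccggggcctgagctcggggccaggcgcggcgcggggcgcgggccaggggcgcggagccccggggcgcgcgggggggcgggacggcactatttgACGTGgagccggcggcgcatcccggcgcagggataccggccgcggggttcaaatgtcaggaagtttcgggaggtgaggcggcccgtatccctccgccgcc
The GATA2 windows hold none of these words, and the LMX1B window holds ACGTG on the plus strand, beginning 100 bases before the start. Of 35093 windows of this length in the table, 10.7% hold TATAAA, 22.3% a GATA word and 18.5% ACGTG, so a single match is a description of the letters and no more. GC content is 72.8% and 71.2% in the GATA2 windows and 76.4% in that of LMX1B.

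EN1, the homeobox factor of V1 interneurons, was at 0.754, 1.17 and 0.671 CPM in NG and at 1.23, 1.48 and 1.53 CPM in SMG. Every SMG library lay above every NG library, though the gap between NG replicate 2 and SMG replicate 1 was small. The values rest on 46 counts in NG and 94 in SMG. The log2 fold change was 0.73 ± 0.26 (adjusted p = 0.0272). The call was lost without NG replicate 1 (adjusted p = 0.124), NG replicate 3 (0.103), SMG replicate 2 (0.0788) or SMG replicate 3 (0.0957), with DESeq2 (0.177), and after removal of each library's trend with transcript length and GC content (0.0563). EN1 is also a gene of the midbrain and hindbrain border, so markers of other brain regions were read beside it. Their summed level was 1.66 to 2.26 CPM in NG and 0.701 to 1.44 CPM in SMG over 7 genes. The genes of that border made up most of the sum: PAX5 had 74 counts in NG and 52 in SMG and fell (-0.81 ± 0.27, adjusted p = 0.0205), and EN2, the paralog of EN1, had 19 and 10. Their part in the EN1 difference was not tested.

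Of 7 other genes listed for the V1 class, 6 were tested, with 0 called higher and 1 called lower. Their median log2 fold change was -0.002. CALB1, a calcium-binding protein named after its values were seen, had a fitted rise that did not pass (0.53 ± 0.30, adjusted p = 0.179). Its approximate 95% interval, -0.05 to 1.11, includes the fitted value of EN1. A rise like that of EN1 could therefore not be told from none for CALB1. FOXP2, a factor of one group of V1 cells and of other neurons, fell from 9.20 ± 0.820 to 6.69 ± 0.255 CPM (log2 fold change -0.47 ± 0.10, adjusted p = 5.88e-04). FOXP2 was at 9.71, 8.25 and 9.63 CPM in NG and at 6.84, 6.83 and 6.39 CPM in SMG, without overlap. Per kb of transcript, FOXP2 (1.11 CPM per kb in NG) was expressed above EN1 (0.352).

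GATA2, a zinc finger factor of V2b interneurons, was at 0.519, 0.370 and 0.549 CPM in NG and at 1.18, 1.26 and 0.657 CPM in SMG. SMG replicates 1 and 2 lay well above every NG library, while SMG replicate 3 lay just above NG replicate 3. Counts summed to 26 in NG and 68 in SMG. The log2 fold change was 1.08 ± 0.33 (adjusted p = 0.0114). The call was lost without SMG replicate 1 (adjusted p = 0.0520) or SMG replicate 2 (0.0755). DESeq2 gave a p of 0.0293 with no adjusted value under its independent filtering, and an adjusted p of 0.203 without that filtering.

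GATA3, which follows GATA2 in the same cells, was at 0.472, 0.246 and 0.549 CPM in NG and at 0.566, 0.943 and 0.131 CPM in SMG. The SMG libraries held both the highest and the lowest value. Its log2 fold change of 0.34 ± 0.51 did not pass (adjusted p = 0.647, approximate 95% interval -0.66 to 1.34), so a change as large as that of GATA2 could not be told from none. The log2 ratio of GATA3 to GATA2 within a library, with 0.5 added to each count, was -0.22 ± 0.276 in NG and -1.19 ± 0.882 in SMG. That difference of -0.97 did not pass an exact two-sided permutation test (p = 0.2, where 3 against 3 cannot go below 0.1), and the groups overlapped. SMG replicate 3 was the lowest SMG library for both genes, and without it the difference was -0.50.

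The rest of the V2b list gave 0 higher and 1 lower of 4 tested. TAL1, the partner of GATA2 in V2b cells, was at 0.532 ± 0.199 CPM in NG and 0.782 ± 0.213 CPM in SMG (0.54 ± 0.34, adjusted p = 0.234). BHLHE22, expressed in several interneuron types, fell from 5.13 ± 0.520 to 3.76 ± 0.597 CPM (-0.44 ± 0.14, adjusted p = 0.0119). GATA2 and GATA3 are also genes of blood, endothelium and trophoblast. The 4 blood and endothelial markers summed to 1.04 to 1.23 CPM in NG and 0.584 to 0.850 CPM in SMG, with 4 counts of GATA1 in NG and 2 in SMG. The trophoblast markers CGA and KRT7 were at 0 in every library, and TFAP2A, the other gene of that list, had 33 counts in NG and 19 in SMG. KDR, a receptor of endothelial cells, made up most of the first sum, with 52 counts in NG and 36 in SMG. The part of these cell types in the GATA2 difference was not tested. Antisense transcripts next to GATA2 and GATA3 had at most 4 counts in a group.

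The sister class, V2a, is the excitatory product of the same progenitor domain. Of its 6 listed genes, all tested, 3 rose and 1 fell. SOX14, a factor of V2 interneurons, was at 4.13 ± 0.939 CPM in NG and 4.04 ± 0.872 CPM in SMG, without a call (-0.02 ± 0.16, adjusted p = 0.930). SHOX2, expressed in part of the V2a class and in other excitatory neurons of the cord, was at 8.72, 9.24 and 8.84 CPM in NG and at 4.72, 3.95 and 4.60 CPM in SMG. It fell by 1.01 ± 0.11 on the log2 scale (adjusted p = 2.59e-08), with a wide gap between the groups. VSX1 rose (0.44 ± 0.16, adjusted p = 0.0349), a call that was lost with no filter (0.0599). LHX3 and LHX4, the other listed genes that rose (0.23 ± 0.07 and 0.22 ± 0.04), are shared with motor neurons. After removal of the length and GC trend LHX3 lost its call (0.08, adjusted p = 0.403) and LHX4 kept it (0.19).

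LMX1B, a LIM homeobox factor, had the lowest level per kb among the 8 tested genes. It was at 0.189, 0.123 and 0.244 CPM in NG and at 0.472, 0.494 and 0.482 CPM in SMG. The SMG libraries lay close together and clear of NG, but on only 10 counts in NG and 32 in SMG. The log2 fold change was 1.35 ± 0.47 (adjusted p = 0.0245). With no filter at all, where the choice of tested genes does not depend on SMG, the adjusted p was 0.0482. The call was lost without each library except NG replicate 3, with adjusted p from 0.0503 to 0.0917, and after trend removal (0.0513), and DESeq2 gave a p of 0.0647.

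Of 11 genes listed for dorsal excitatory interneurons, 2 were tested and neither passed, and BARHL2, LHX9 and ATOH1 were at 0 in every library. LBX1, a factor of several dorsal classes, had 53 counts in NG and 68 in SMG (0.06 ± 0.28, adjusted p = 0.899). TLX3 and DRGX, which are expressed with LMX1B in dorsal cells, had 3 and 4 counts in NG and 1 each in SMG, while TLX1 went from 1 to 7 and BARHL1 from 1 to 5. These counts are too few to give a direction. POU4F1, a factor of dorsal and sensory neurons and the only listed gene with at least 2 CPM, was at 2.24 ± 0.669 CPM in NG and 2.24 ± 0.507 CPM in SMG. Of the serotonergic markers, FEV had 0 counts in NG and 1 in SMG, and TPH2, the enzyme of serotonin synthesis in neurons, had 0 and 3. The other listed genes are shared with other neurons and were present, SLC6A4 with 19 and 28 counts, DDC with 37 and 56, and SLC18A2 at 9.16 and 9.49 CPM, and 0 of the 2 tested passed. LMX1A, the related roof plate factor, was at 0 in every library. The floor plate list had 2 of 5 genes tested and 0 called (1 lower after trend removal), with FOXA2 at 2 counts in each group.

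SIM1, the V3 factor, was at 0.0943, 0.246 and 0.0610 CPM in NG, on 2, 4 and 1 counts. The SMG libraries had 0, 0 and 5 counts, the last of them 0.219 CPM. Its single SMG library with counts lay within the NG range. The 2 SMG libraries with no count allow up to 3 counts, or 0.143 and 0.135 CPM, counting error only. Without a filter edgeR gave -0.73 ± 0.90 (adjusted p = 0.645), so no difference was detectable at this depth. NKX2-2, a factor of the progenitor domain that gives rise to V3 cells, rose from 2.94 ± 0.280 to 3.86 ± 0.143 CPM (0.38 ± 0.14, adjusted p = 0.0359). That call was lost with no filter (0.0689) and after trend removal (0.0749). UNCX, listed for the same class, had 6 counts in NG and 4 in SMG. The V0 list, a further class, had 0 of 4 genes tested.

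Across the 7 interneuron class lists, 22 of the 44 genes that are not among the 9 could be tested, with 4 higher, 3 lower and a median log2 fold change of 0.07, while 5 had no count in any library. That is 31.8% called, beside 35.8% of all tested genes and a median of all tested genes at 0 to 2 decimals. After trend removal 2 were higher and 3 lower. The interneuron lists as a whole thus showed calls at about the background rate and in both directions. The motor neuron list, for reference, had 6 of 8 higher, 0 lower and a median of 0.22, and 4 of 8 higher with a median of 0.14 after trend removal. The V2a genes LHX3 and LHX4 belong to both lists.

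**Figure D2:**
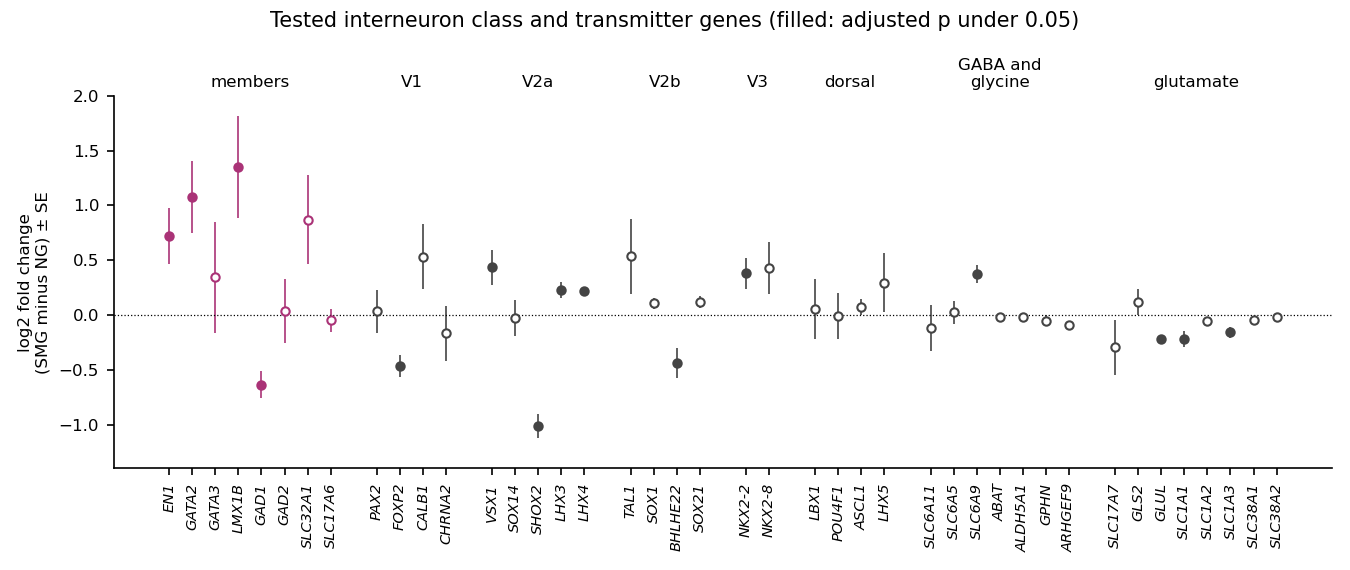
Log2 fold change (SMG minus NG, vertical axis) ± SE of the tested genes among the 9 (purple, left) and of selected tested genes from the interneuron class and transmitter lists (grey), grouped by list. Filled points had an adjusted p under 0.05. Error bars are widest for the weakly expressed GATA3, LMX1B and SLC32A1. Most of the listed genes drawn outside the 9 lie within 0.5 of 0, with SHOX2 at -1.01 the farthest below.

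GAD1, which makes the bulk of GABA in most neurons and is also expressed early in development, was at 5.56, 5.67 and 6.03 CPM in NG and at 3.73, 4.09 and 3.28 CPM in SMG. The highest SMG library stayed well below the lowest NG library. Counts were 92 to 118 per library in NG and 75 to 91 in SMG, even though the SMG libraries were on the whole deeper. GAD1 fell by 0.63 ± 0.12 on the log2 scale (adjusted p = 2.05e-04, approximate 95% interval -0.88 to -0.39). It was called in the same direction under all 17 alternatives, from -0.71 to -0.55, including DESeq2 (adjusted p = 0.00573). An antisense gene, AC007405.2, overlaps 5.68% of its exon bases and had 0 to 4 counts per library, and no source used here says whether the counting used strand.

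GAD2, the isoform tied to synaptic vesicles, was at 0.849, 0.862 and 0.610 CPM in NG and at 0.944, 0.763 and 0.701 CPM in SMG. The groups overlapped and their means, 0.774 ± 0.142 and 0.803 ± 0.126 CPM, nearly coincided. The log2 fold change was 0.04 ± 0.29 (adjusted p = 0.940). Its approximate 95% interval, -0.53 to 0.61, leaves out a fall as large as the fitted value for GAD1 but reaches into the interval of GAD1. Within libraries, the log2 ratio of GAD2 to GAD1 took the values -2.68, -2.67 and -3.24 under NG and -1.96, -2.39 and -2.19 under SMG. All 3 SMG ratios lay above all 3 NG ratios, a difference of 0.69. The exact permutation test gave its smallest possible p of 0.1 (0.133 adjusted over 4 ratios), so the design cannot place this ratio past 0.05.

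SLC32A1, the vesicular transporter shared by GABA and glycine neurons, was at 0.472, 0.431 and 0.122 CPM in NG and at 0.850, 0.584 and 0.526 CPM in SMG. The groups did not overlap, on 19 counts in NG and 43 in SMG. The log2 fold change was 0.87 ± 0.41 and did not pass (adjusted p = 0.0972). The log2 ratio of SLC32A1 to GAD1 was -4.15 ± 1.02 in NG and -2.49 ± 0.342 in SMG, without overlap (exact p = 0.1, adjusted 0.133). NG replicate 3, with 2 counts of SLC32A1, was the lowest library, and without it the difference went from 1.66 to 1.07. GAD1 and SLC32A1 therefore had fitted changes of opposite sign, of which only that of GAD1 passed. The fitted change of GAD2, the other synthesis enzyme, was 0.04 ± 0.29.

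The other 9 genes of GABA and glycine handling gave 8 tested, 1 higher and 0 lower (1 lower after trend removal). SLC6A9, a glycine transporter found on glia and on some neurons, rose from 11.5 ± 0.356 to 14.9 ± 0.833 CPM (0.37 ± 0.08, adjusted p = 6.50e-04). SLC6A5, the glycine transporter that marks glycinergic neurons, was at 7.50, 6.90 and 8.47 CPM in NG and at 8.07, 7.50 and 7.66 CPM in SMG (0.02 ± 0.10, adjusted p = 0.886). Its groups overlapped. ABAT, which breaks down GABA, was at 384 ± 10.4 and 378 ± 7.09 CPM (-0.02 ± 0.03, adjusted p = 0.642).

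SLC17A6, the glutamate transporter of most spinal excitatory neurons and also expressed by motor neurons, had the highest level per kb of the 9 genes. It was at 10.6, 8.07 and 9.27 CPM in NG and at 9.91, 8.98 and 8.32 CPM in SMG. The groups overlapped over nearly their whole range, with means of 9.30 ± 1.25 and 9.07 ± 0.800 CPM. The log2 fold change was -0.05 ± 0.10 (adjusted p = 0.752), with an approximate 95% interval of -0.25 to 0.15. A change of the size seen for GAD1 lies outside that interval. The log2 ratio of SLC17A6 to SLC32A1 was 4.83 ± 0.967 in NG and 3.78 ± 0.233 in SMG, without overlap (exact p = 0.1, adjusted 0.133). The difference was -1.05, and -0.50 without NG replicate 3. The antisense gene AC104009.1 overlaps 3.04% of the exon bases of SLC17A6 and had 3 to 14 counts per library.

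Among 10 other genes of glutamate synthesis and transport, 9 were tested, 0 rose and 4 fell, of which 1, GLUL, remained called after trend removal. GLUL, glutamine synthetase, went from 353 ± 15.7 to 303 ± 6.49 CPM (-0.22 ± 0.03, adjusted p = 1.24e-05). The uptake transporters SLC1A1 (-0.22 ± 0.07, adjusted p = 0.0195) and SLC1A3 (-0.16 ± 0.05, adjusted p = 0.0149) fell as well, and their adjusted p after trend removal was 0.0502 and 0.0509. GLUL and SLC1A3 are typical of astrocytes and progenitors. The glial list summed to 249 to 276 CPM in NG and 237 to 239 CPM in SMG, with GFAP at 11 counts in NG and 10 in SMG, and its part in these falls was not tested.

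**Figure D3:**
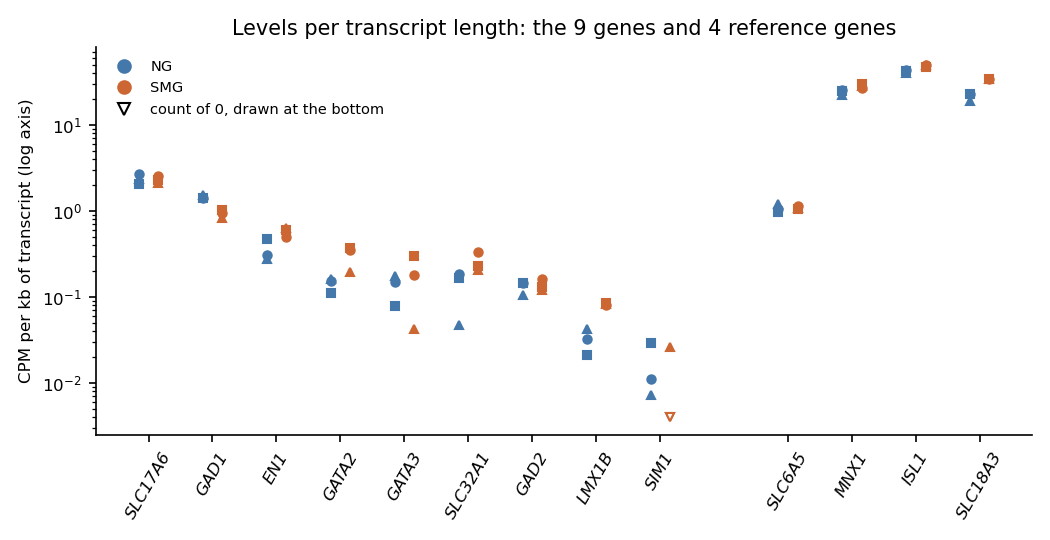
Level per kb of each gene's longest transcript (CPM per kb, log axis) in the 3 NG (blue) and 3 SMG (orange) libraries, for the 9 genes in order of their NG mean and for 4 reference genes. Shapes are replicates as in the plot of levels by library, and an open triangle stands for a count of 0, drawn at the bottom. The 9 genes span from SLC17A6 at 2.35 to SIM1 at 0.0159 CPM per kb in NG, and the motor neuron genes MNX1, ISL1 and SLC18A3 lie above all of them.

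Levels were compared between genes per kb of the longest transcript. In NG the order was SLC17A6 (2.35 ± 0.316 CPM per kb), GAD1 (1.44 ± 0.0621), EN1 (0.352 ± 0.109), then GATA2 (0.142), GATA3 (0.135), SLC32A1 (0.133) and GAD2 (0.132), and last LMX1B (0.0319) and SIM1 (0.0159). The ranges of GATA2, GATA3, SLC32A1 and GAD2 overlapped, as did those of LMX1B and SIM1, and the other neighbours did not. In SMG the same 3 genes led, SLC17A6 at 2.30 ± 0.203, GAD1 at 0.928 ± 0.101 and EN1 at 0.576 ± 0.0666 CPM per kb. GATA2 (0.306), SLC32A1 (0.254), GATA3 (0.175) and GAD2 (0.137) followed with overlapping neighbours, then LMX1B (0.0831) and SIM1 (0.00866). The step from GAD1 to EN1 narrowed, and with the union of all exons as length EN1 (0.490) stood above GAD1 (0.449) in SMG, so that step depends on which transcript is taken. For scale, the motor neuron factor ISL1 was at 41.7 CPM per kb in NG and SLC6A5 at 1.08. GAD2 lay below GAD1 in NG on either length, at 0.132 against 1.44 CPM per kb of the longest transcript and at 0.124 against 0.698 per kb of the union of exons.

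Only GAD1 and SLC17A6 had at least 2 CPM, and their patterns over the 6 libraries were compared with those of 68 listed genes. The most like GAD1 were GLUL (Pearson's r = 0.969 of log2 CPM) and STMN2, a neuronal microtubule regulator (r = 0.965), both lower in SMG, though the fall of STMN2 (-0.12) was lost after trend removal (-0.010, adjusted p = 0.792). The gene most like SLC17A6 was SLC18A2, a vesicular monoamine transporter (r = 0.908). These values describe 6 points that share libraries and scaling.

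**Figure D4:**
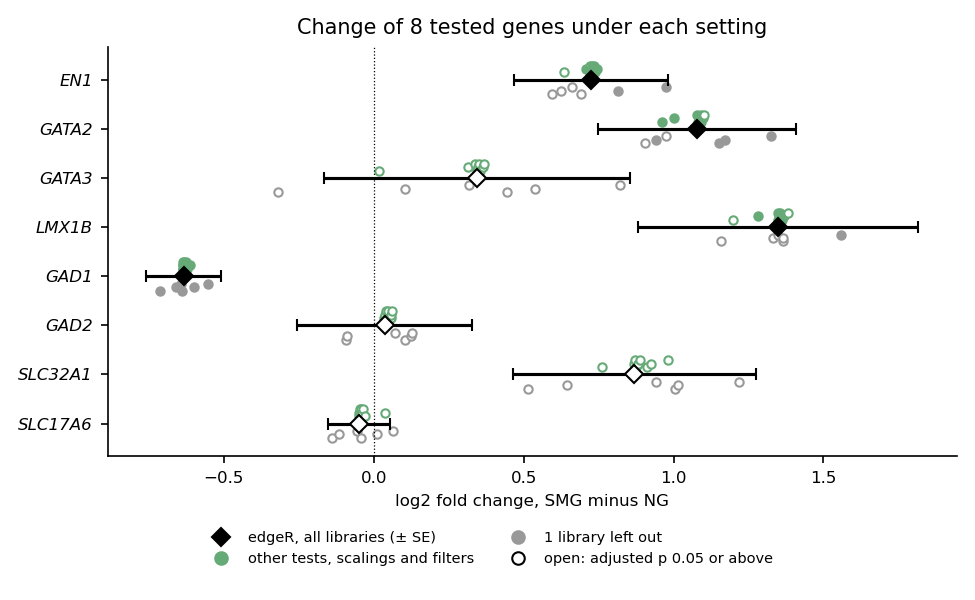
Log2 fold change (horizontal axis, SMG minus NG) of the 8 tested genes with all libraries (diamond, ± SE), under other tests, scalings and filters (green) and with 1 library left out (grey). Open symbols had an adjusted p of 0.05 or above, settings without an adjusted p are not drawn, and vertical offsets only separate points. GAD1 stays filled between -0.71 and -0.55, while EN1, GATA2 and LMX1B stay above 0 with many open points.

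EN1, GATA2 and LMX1B kept their sign in every alternative that tested them, but the number called among the 9 genes as higher ranged from 3 to 0. It was 0 with DESeq2, which gave an adjusted p to 3 of the 9, and 0 without SMG replicate 2. Genes under 2 CPM had a median SE of 0.289 (log2), against 0.0524 at 10 CPM or more, so 7 of the 9 genes were measured with errors several times those of well-expressed genes.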

How the data were processed

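Per the labels' protocols, total RNA went into an mRNA library kit. The authors deposited raw, unnormalized counts by Ensembl gene ID. Per the submitters' processing notes, their tools were HISAT2, SAMtools, featureCounts and DESeq2 on hg19. Versions, annotation, strand use and the handling of multiply mapped reads: not given in the sources used here. Symbols came from a table of gene names and GENCODE 29, which is on another build and was used only for names, lengths, GC content and overlaps.

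Counts were filtered (filterByExpr at its defaults), TMM-scaled and tested with edgeR 4.0.16 (quasi-likelihood, robust) over 17803 genes, with Benjamini-Hochberg adjustment and a threshold of 0.05. The scripts were tested on simulated data. Ratios used exact permutation tests. Alternatives were DESeq2 1.42.0, limma-voom 3.58.1, other scalings and filters, a replicate block, removal of a length and GC trend, and leaving out each library. Groups came from the labels. The 9 genes and the 26 lists were chosen with earlier results of these data known. Besides the 9, up to 4 genes per list with a mean of at least 2 CPM were named, in list order, and genes at 0 that define a class. Other genes, such as TAL1, TFAP2A, PAX5 and LBX1, were named after their values were seen. Values of some listed genes are not reported here. The same-numbered libraries were not taken as pairs (correlations of deviations -0.0281 to 0.0178), and no 2 libraries of a group matched within sampling noise (chi-square over its degrees of freedom, 1.53 to 3.11).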

Additional observations from a re-analysis of the deposited data

How the results depend on the processing

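GAD1 was lower and called under all 17 alternatives. The number of the 9 genes called higher, 3 with all libraries, was 1 when 3 libraries had to reach 1 CPM (which left 3 of the 9 tested), 1 after removal of the length and GC trend, 0 with DESeq2, 0 with DESeq2 without independent filtering (added after the data were seen), and 0 to 2 with 1 library left out. Some of these settings had fewer tested genes or fewer libraries, and the cause of the lost calls was not tested. DESeq2 without independent filtering called 1713 genes higher and 1830 lower of 36297, against 3080 and 3296 of 17803 with edgeR. Among all genes, those called higher were 3097 of 15597 at 1 CPM, 2565 of 17193 after trend removal and 2098 of 15888 with DESeq2. With 1 library left out they were 2412 to 2985. Signs that reversed were those of uncalled genes. With 1 library left out, GATA3 ranged from -0.32 (without SMG replicate 2) to 0.82, GAD2 from -0.093 (without NG replicate 3; -0.089 without SMG replicate 1) to 0.13, and SLC17A6 from -0.14 to 0.066 (without NG replicate 1; 0.0096 without SMG replicate 3). SLC17A6 was at 0.037 after trend removal. With the replicate number as a replicate block, EN1 was at 0.71 (adjusted p = 0.0355), GATA2 at 1.09, LMX1B at 1.35 and GAD1 at -0.64, and 3077 genes were higher and 3256 lower, so the block changed no call of the 9 genes. The numbers do not pair the libraries. The 4 ratios kept their direction under all 8 alternatives each. Low counts of 7 of the 9 genes, under 2 CPM, limit what these libraries can show.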

Other observations

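Neuropeptides and calcium-binding proteins that mark interneurons were mostly near the limit of detection. Of 11 listed, 4 were tested, 0 rose and 1 fell. SST, the somatostatin precursor of some dorsal and other interneurons, was the only abundant one, at 42.3 ± 3.40 CPM in NG and 42.9 ± 2.57 CPM in SMG (log2 fold change 0.02 ± 0.06, edgeR adjusted p = 0.846). NTS, the neurotensin precursor, went from 1.83 ± 0.302 to 0.994 ± 0.0912 CPM (-0.89 ± 0.22, adjusted p = 0.00242). It was named after its values were seen. CCK was at 0 in every library.

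HOX genes, whose order along the chromosome follows the axis from hindbrain to tail, were expressed from hindbrain to thoracic members. Of 15 listed, 13 were tested, 4 rose and 2 fell (4 higher and 3 lower after trend removal). HOXA2 was at 26.5 CPM in NG and 26.7 CPM in SMG, and HOXB2 fell by 0.24 ± 0.05 on the log2 scale (adjusted p = 3.03e-04). HOXC8 (196 ± 8.70 to 223 ± 7.48 CPM, 0.19 ± 0.04, adjusted p = 1.82e-04) and HOXC9 (27.0 ± 1.17 to 34.4 ± 1.49 CPM, 0.35 ± 0.06, adjusted p = 2.07e-05) rose, and HOXD10, a lumbar gene, was at 0 in every library. HOXB5 rose as well (0.16 ± 0.05, edgeR adjusted p = 0.0211). HOXB8 was at 102 ± 7.35 CPM in NG and 99.4 ± 2.85 CPM in SMG (-0.04 ± 0.04, adjusted p = 0.568). After trend removal HOXB8 was called lower (-0.10, adjusted p = 0.0308). HOXD9 did not pass (-0.14 ± 0.23, adjusted p = 0.676). The calls therefore did not follow 1 direction along the axis. HOXB5, HOXB8, HOXC8, HOXC9 and HOXD9 were named after their values were seen.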
